A study of Mus musculus with 12 samples.

Results

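The genes described here encode the major histocompatibility complex (MHC) class I molecules of the mouse and the machinery that loads them with peptide. They were taken from the table of normalized counts by symbol: every gene whose name begins with H2-K, H2-D, H2-Q, H2-T or H2-M followed by a digit, and *B2m*, *Tap1*, *Tap2*, *Tapbp*, *Tapbpl*, *Nlrc5*, *Erap1*, *Calr*, *Canx* and *Pdia3*. This gave 40 genes of 55487 gene models. Of these, 2 are the classical heavy chain genes *H2-K1* and *H2-D1*, 1 is the pseudogene *H2-K2*, 27 are class Ib genes (8 of the Q, 5 of the T and 14 of the M region) and 10 encode the light chain, the loading machinery and a transactivator. A mean of at least 10 normalized counts over the 12 libraries was reached by 23 of the 40 genes, 10 of them class Ib. A further 7 genes had reads but a lower mean, and 10 genes, each of them class Ib, had no read in any library.

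RNA-seq was performed on bone marrow-derived macrophages (BMDMs), which are macrophages grown from bone marrow progenitors. There were 4 groups of 3 libraries, from mice aged 8 to 12 weeks: RasGEF1b-cKO (KO) BMDMs given LPS (100 ng/ml, 4 h), WT BMDMs treated in the same way, untreated KO BMDMs and untreated WT BMDMs. LPS, which coats Gram-negative bacteria, activates macrophages by way of Toll-like receptor 4. The KO mice carried a *Rasgef1b* allele with loxP sites around exons 7 and 8 (genotype Rasgef1b-fl/fl;CMVcre), and *Rasgef1b* encodes a guanine nucleotide exchange factor for Ras family GTPases. The CMV promoter drives Cre in all tissues, so that the deletion is not limited to macrophages. Per the methods, all mice were kept on a C57BL/6 background. The WT mice came from the facility of another institution than that which generated the KO line, and the housing of the KO mice used here is not stated. The methods do not describe the genotypes as littermates, so genotype and colony cannot be told apart. Values are normalized counts, that is, reads per gene divided by 1 size factor per library.

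A class I molecule is a heavy chain held together with the light chain beta-2-microglobulin, and it displays on the cell surface peptides cut from proteins of the cytosol. The TAP transporter carries these peptides into the endoplasmic reticulum, where tapasin and the chaperones calreticulin and ERp57 keep the empty heavy chain ready until a peptide binds. In macrophages class I genes are known as targets of interferons and of NF-kB, with *Nlrc5* as their dedicated transactivator. Classical molecules present peptides to CD8+ T cells, whereas class Ib molecules are less polymorphic and many have narrower tasks, among them the display of signal peptides to natural killer cells by Qa-1, the product of *H2-T23*.

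The promoters of several of these genes resemble each other, and the stretches that hold the elements shared with *B2m* are given here because *H2-M2*, which rose most after LPS, and *H2-Q6* and *H2-Q7*, which were among the genes lowest in KO relative to WT BMDMs, are among them. RefSeq promoter windows of GRCm38.p6, from 250 bases before to 50 bases after the start of a gene, were at hand for 16 of the 23 genes, and 140 bases of each window are printed from 5′ to 3′ on the strand of the gene. Capitals mark matches, on either strand, to the core of the interferon-stimulated response element (ISRE, GAAA and GAAA with any 2 bases between), to the NF-kB consensus, to the core of the X2 box (TGACG) and to the Y box (CCAAT). Overlapping matches of the NF-kB consensus are merged into 1 run of capitals, and matches of different motifs do not overlap in these stretches.
B2m, chr2:122147538-122147677: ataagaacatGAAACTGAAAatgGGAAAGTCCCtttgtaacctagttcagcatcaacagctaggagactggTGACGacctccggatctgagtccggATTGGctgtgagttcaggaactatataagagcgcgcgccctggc
H2-K1, chr17:34000329-34000468: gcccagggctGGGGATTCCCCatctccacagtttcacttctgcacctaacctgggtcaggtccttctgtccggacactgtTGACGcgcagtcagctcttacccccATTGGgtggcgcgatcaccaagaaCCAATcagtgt
H2-D1, chr17:35262913-35263052: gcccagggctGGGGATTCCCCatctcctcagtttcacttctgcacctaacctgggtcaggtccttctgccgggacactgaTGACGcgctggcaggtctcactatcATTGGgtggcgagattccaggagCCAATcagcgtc
H2-Q4, chr17:35379433-35379572: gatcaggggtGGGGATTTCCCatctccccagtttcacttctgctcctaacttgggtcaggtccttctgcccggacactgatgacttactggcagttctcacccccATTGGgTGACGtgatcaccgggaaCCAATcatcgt
H2-Q6, chr17:35424667-35424806: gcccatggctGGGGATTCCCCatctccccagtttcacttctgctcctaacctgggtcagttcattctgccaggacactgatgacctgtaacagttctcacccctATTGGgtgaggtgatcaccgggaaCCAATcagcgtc
H2-Q7, chr17:35439012-35439151: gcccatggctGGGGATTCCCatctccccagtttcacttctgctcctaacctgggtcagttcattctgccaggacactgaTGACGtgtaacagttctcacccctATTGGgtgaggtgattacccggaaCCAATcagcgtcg
H2-T22, chr17:36042826-36042965: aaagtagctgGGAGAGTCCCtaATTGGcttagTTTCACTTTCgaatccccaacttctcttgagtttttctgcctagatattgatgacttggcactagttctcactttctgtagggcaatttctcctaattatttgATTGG
H2-M2, chr17:37483605-37483744: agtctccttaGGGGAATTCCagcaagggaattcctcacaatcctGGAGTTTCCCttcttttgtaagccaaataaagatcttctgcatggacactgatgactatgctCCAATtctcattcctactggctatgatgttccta

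The NF-kB consensus was found in the 300-base windows of 9 of the 16 genes (*B2m*, *H2-K1*, *H2-D1*, *H2-Q4*, *H2-Q6*, *H2-Q7*, *H2-T22*, *H2-M3* and *H2-M2*) and in 4.51% of all 32851 promoter windows. The ISRE core was found in 4 of the 16 (*B2m*, *Erap1*, *H2-T23* and *H2-T22*) and in 3.44% of all windows. The X2 core was found in 11 of the 16 and in 20.8% of all windows, and the Y box in 15 of the 16 and in 37.4% of all windows. In the printed stretches *H2-Q6* and *H2-Q7* differ by 4 single-base edits over 140 bases, whereas *H2-K1* and *H2-D1* differ by 17 and *H2-Q4* and *H2-Q6* by 17. The TGACG of the *H2-Q7* stretch, which *H2-K1* and *H2-D1* also carry, is not found in the *H2-Q6* stretch. Matches were counted at any position. The TGACG of *H2-Q4* lies after the ATTGG, whereas that of *H2-K1*, *H2-D1* and *H2-Q7* lies before it, so the *H2-Q4* match is not in the same place. A match is a description of the letters in these windows and does not show binding, and the lack of a match does not show that an element is absent.

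Reads in genes numbered 19316691 to 24977356 per library. A read was worth 1.21 to 1.41 normalized counts in LPS-treated libraries and 0.660 to 0.855 in untreated ones, so levels compared between treatments rest on the size factors. *Rasgef1b* had 3775, 4192 and 3618 normalized counts in LPS-treated KO BMDMs and 12554, 11855 and 11844 in LPS-treated WT BMDMs, with 695, 545 and 587 in untreated KO and 2171, 2001 and 2043 in untreated WT BMDMs. These values count reads over all exons although only exons 7 and 8 are deleted, and every KO library lay below every WT library of the same treatment. All 7 macrophage markers were expressed in each group, and the 6 T and NK cell markers summed to at most 6.0 normalized counts in a library. The 7 neutrophil and progenitor markers, mainly *S100a8*, *S100a9* and *Ngp*, summed to 386 to 1144 in LPS-treated KO and 293 to 637 in LPS-treated WT libraries. In untreated cells they summed to 227.5 to 521 in KO and 226 to 516 in WT libraries. The part of these markers in the values below was not tested. In untreated KO replicate 2 a ribosomal RNA gene model held 5.06% of all counted reads, where the remaining 11 libraries had 0.0398% to 0.0874%.

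The 40 genes together took 1.34%, 1.21% and 1.30% of the reads in LPS-treated KO BMDMs and 1.34%, 1.27% and 1.317% in LPS-treated WT BMDMs. In untreated cells they took 0.913%, 0.741% and 0.798% in KO and 1.04%, 0.893% and 0.859% in WT BMDMs. The share was thus higher in every LPS-treated library than in any untreated one. Per kilobase of exon, *B2m*, *H2-D1* and *H2-K1* stood above the other 37 genes, in this order, in all 4 groups. *B2m* had 90424 and 95821 normalized counts per kilobase in LPS-treated KO and WT BMDMs and 36385 and 43750 in untreated KO and WT BMDMs, as group means. *H2-D1* had 29381 and 31606 per kilobase in LPS-treated KO and WT BMDMs and 14645 and 16743 in untreated KO and WT BMDMs. The gene next in order was *Tapbp* in LPS-treated cells, with 7232 per kilobase in KO and 7043 in WT BMDMs, followed closely by *Calr* with 6496 in KO and 7036 in WT BMDMs. In untreated cells *Calr* came next, with 5469 per kilobase in KO and 5884 in WT BMDMs, close to the 5783 and 6640 of *H2-K1*. Of the normalized counts of the expressed heavy chain genes and *H2-K2*, *H2-K1* and *H2-D1* held 77.9% to 78.8% in LPS-treated KO and 78.0% to 78.9% in LPS-treated WT libraries, against 87.9% to 89.9% in untreated KO and 87.2% to 89.2% in untreated WT libraries.

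The first question was how LPS changed these genes in each genotype. LPS raised 18 of the 23 expressed genes in KO BMDMs and 17 of 23 in WT BMDMs, and lowered none, at a limma adjusted p under 0.05 and at least a 2-fold change. Of all genes tested, 17.3% were called higher and 16.6% lower in KO BMDMs, and 17.1% higher and 16.9% lower in WT BMDMs. In each genotype 22 of the 23 genes were higher after LPS without overlap between libraries. So were 38.4% of all genes tested in KO and 38.3% in WT BMDMs. The median log2 fold change of the 23 genes was 2.35 in KO and 2.06 in WT BMDMs, beside medians of -0.01 and -0.02 over all genes tested. Ordered by the size of the change, *H2-M2*, *H2-Q5*, *H2-Q6*, *H2-Q7*, *Nlrc5* and *Tap1* stood at the top. Then came *Tap2*, *Tapbp*, *Tapbpl*, *H2-Q4* and the T region genes, and below them the classical heavy chains, *B2m* and *H2-M3*. In WT BMDMs the top genes were not set apart from the next, with 2.93 for *H2-Q5* and 2.84 for *H2-T22*. *Calr*, *Canx*, *Pdia3*, *Erap1* and *H2-K2* were not called in either genotype.
Scaling the libraries to equal total reads in place of the deposited size factors moved the median of all genes by -0.68 in KO and -0.72 in WT BMDMs on the log2 scale, and then 14 of the 23 genes were called higher in each genotype. The 4 genes that lost the call in KO BMDMs were *H2-K1*, *H2-D1*, *B2m* and *H2-M3*, and the 3 in WT BMDMs were *H2-K1*, *B2m* and *H2-M3*. Upper quartile scaling moved the median by 0.19 in KO and 0.18 in WT BMDMs and gave 20 and 18 calls. Among all genes, equal total reads turned 2201 higher and 2108 lower calls in KO BMDMs into 1447 higher and 4621 lower, and 2158 higher and 2136 lower calls in WT BMDMs into 1379 higher and 4784 lower. Fewer cells of a type and less RNA per cell cannot be told apart in such bulk samples. The summed level of 7 dendritic cell markers was 101 to 156 normalized counts in LPS-treated KO and 80.2 to 113 in LPS-treated WT libraries, against 13.7 to 31.7 in untreated KO and 13.8 to 22.4 in untreated WT libraries, and its part in the changes was not tested. After LPS its largest part was *Xcr1*, with 61.2 to 82.2 in KO and 40.8 to 76.5 in WT libraries. *Xcr1* had 2.1 to 3.4 in untreated KO and 2.6 to 7.2 in untreated WT libraries. *Flt3*, *Siglech* and *Cd209a* had at most 4.2 in any library. *Cd209a* had no read in LPS-treated KO BMDMs.

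**Figure D1:**
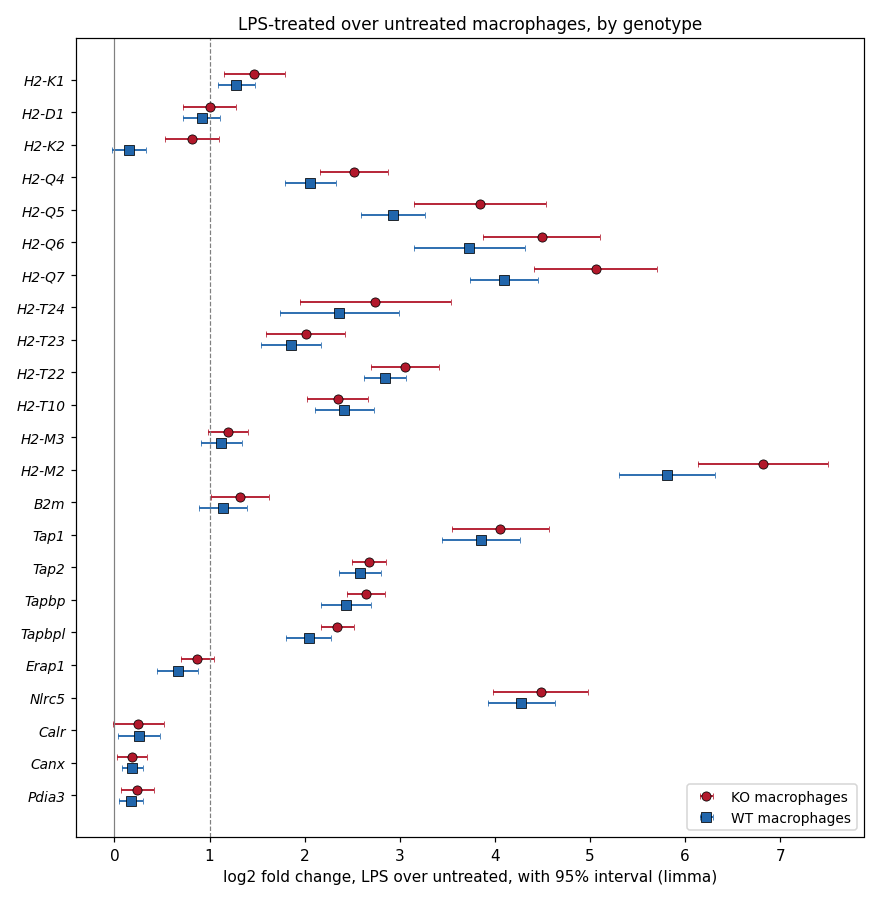
Log2 fold change of LPS-treated over untreated BMDMs (x axis, limma on log2 of the normalized count plus 1, bars are 95% intervals) for the 23 expressed genes (y axis), in KO (circles) and WT (squares) BMDMs, with 3 libraries per group. The dashed line marks a log2 fold change of 1, and the changes run from 0.19 for *Canx* to 6.81 for *H2-M2* in KO BMDMs.

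*H2-K1* encodes the classical heavy chain H-2K. In KO BMDMs it had 52927, 40579 and 47249 normalized counts after LPS, against 20202, 14836 and 15936 untreated. The values of WT BMDMs were 47699, 44127 and 49789.5 after LPS, against 21934, 18312 and 18281 untreated. Every LPS-treated library was above every untreated one, with log2 fold changes of 1.47 (standard error, SE, 0.14, limma adjusted p = 1.73e-05) in KO and 1.28 (SE 0.09, limma adjusted p = 8.63e-07) in WT BMDMs.
*H2-D1* encodes the other classical heavy chain of these mice, H-2D. It had 81919.7, 66006 and 79396 normalized counts in LPS-treated KO BMDMs, against 41304, 34005 and 37999 in untreated KO BMDMs. WT BMDMs had 83675, 75755 and 85109 after LPS, against 47743, 40178 and 41621 untreated. The groups did not overlap in either genotype. The log2 fold change was 1.003 (SE 0.12, limma adjusted p = 8.56e-05) in KO and 0.92 (SE 0.09, limma adjusted p = 9.04e-06) in WT BMDMs, on either side of the fold threshold, so the gene was called in KO BMDMs alone. The difference between these responses was 0.08 (95% interval -0.25 to 0.42, limma adjusted p = 0.999). In KO BMDMs the call was lost without LPS-treated replicate 1 (0.94), LPS-treated replicate 3 (0.97) or untreated replicate 2 (0.93), and with edgeR (0.98).

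*B2m*, on chromosome 2, encodes the light chain of all class I molecules. It had 84743, 68851 and 79701 normalized counts in KO BMDMs after LPS, against 36827, 28145 and 28902 untreated. LPS-treated WT BMDMs had 85392, 79116 and 82711, against 44857, 35526 and 32492 in untreated WT BMDMs. The groups were apart, with log2 fold changes of 1.319 (SE 0.13, limma adjusted p = 2.65e-05) in KO and 1.14 (SE 0.11, limma adjusted p = 1.23e-05) in WT BMDMs.

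*Tap1* and *Tap2*, the subunits of the peptide transporter, differed in the size of their response. *Tap1* had 22829, 18262 and 20968 normalized counts in LPS-treated KO BMDMs, against 1860.2, 958 and 1058 in untreated KO BMDMs. In WT BMDMs it had 21159, 20318 and 22693 after LPS, against 2103, 1298 and 1179 untreated. Replicate 1 was the highest untreated library in both genotypes, yet far below every LPS-treated one. The log2 fold change of *Tap1* was 4.06 (SE 0.22, limma adjusted p = 4.98e-07) in KO and 3.85 (SE 0.18, limma adjusted p = 7.15e-08) in WT BMDMs. *Tap2* had 4763, 4457 and 4870.0 normalized counts in LPS-treated KO BMDMs, against 818, 687 and 702 in untreated KO BMDMs, and in WT BMDMs 4088, 3981 and 5006 after LPS, against 800.0, 704 and 671 untreated. These groups did not overlap either, and the log2 fold change was 2.68 (SE 0.08, limma adjusted p = 1.54e-08) in KO and 2.58 (SE 0.10, limma adjusted p = 1.80e-08) in WT BMDMs.

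*Tapbp* encodes tapasin, which bridges the transporter and the heavy chain, and *Tapbpl* the related peptide editor TAPBPR. *Tapbp* had 27867, 24131 and 26721 normalized counts in LPS-treated KO BMDMs, against 4633, 4088 and 3871 in untreated KO BMDMs, and 24760.3, 24339.5 and 27553 in LPS-treated WT BMDMs, against 5819, 4324 and 4184 in untreated WT BMDMs. *Tapbpl* was less abundant, with 1641, 1525 and 1635 in LPS-treated KO BMDMs, against 337, 317 and 290.0 in untreated KO BMDMs, and 1317, 1339 and 1641 in LPS-treated WT BMDMs, against 375, 309 and 356 in untreated WT BMDMs. The log2 fold changes were 2.65 in KO and 2.43 in WT BMDMs for *Tapbp*, and 2.34 in KO and 2.04 in WT BMDMs for *Tapbpl*, with all 4 called. A share of 10.1% of the 150-base windows of *Tapbp* transcripts also occurs in *Gm19412* on the opposite strand, and whether the counting used strand is not given in the sources used here.
*Erap1*, which trims peptides in the endoplasmic reticulum, had 2611, 2769 and 2367 normalized counts in LPS-treated KO BMDMs, against 1487, 1335 and 1408 in untreated KO BMDMs. In WT BMDMs it had 2637, 2563 and 2379 after LPS, against 1841, 1589 and 1384 untreated. The groups did not overlap, but the log2 fold changes of 0.87 (SE 0.08, limma adjusted p = 9.24e-06) in KO and 0.66 (SE 0.10, limma adjusted p = 1.92e-04) in WT BMDMs were under the fold threshold. In WT BMDMs the change was -0.06 with libraries scaled to equal total reads. *Erap1* overlaps *Cast* on the opposite strand, with 9.43% of its 150-base windows in common.

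The chaperones that serve many other glycoproteins were, with *H2-K2* in WT BMDMs, the genes that moved least after LPS. *Calr* encodes calreticulin, *Canx* calnexin and *Pdia3* the disulfide isomerase ERp57. *Calr* had 16615, 20786 and 18726 normalized counts in LPS-treated KO BMDMs, against 13929.8, 17955 and 15364 in untreated KO BMDMs, and 21489.5, 21346 and 17955 in LPS-treated WT BMDMs, against 18517, 17360.4 and 14964 in untreated WT BMDMs, with overlap in both genotypes. *Canx* had 9900.1, 10973 and 10176 in LPS-treated KO BMDMs, against 8868, 9559 and 8837 in untreated KO BMDMs, and 10399, 10339.8 and 10588 in LPS-treated WT BMDMs, against 9386, 9049 and 9091 in untreated WT BMDMs. *Pdia3* had 11549.9, 12622 and 11976 in LPS-treated KO BMDMs, against 9673, 11001 and 9926 in untreated KO BMDMs, and 11985, 11954 and 11234 in LPS-treated WT BMDMs, against 10786, 10371 and 10009 in untreated WT BMDMs. The log2 fold changes of these 3 genes lay between 0.19 and 0.25 in KO and between 0.17 and 0.26 in WT BMDMs, and with equal total reads they became -0.50 to -0.44 in KO and -0.55 to -0.47 in WT BMDMs. Their direction after LPS therefore depends on the scaling.

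*Nlrc5*, on chromosome 8, encodes the transactivator that acts at class I promoters. It had 15482, 13156 and 14087 normalized counts in LPS-treated KO BMDMs, against 965, 496 and 538 in untreated KO BMDMs. In WT BMDMs it had 13778, 13974 and 17127 after LPS, against 1004, 685 and 652 untreated. Replicate 1 was again the highest untreated library in both genotypes, and the LPS-treated libraries were all more than 10-fold above it. The log2 fold change was 4.48 (SE 0.22, limma adjusted p = 2.62e-07) in KO and 4.28 (SE 0.15, limma adjusted p = 1.27e-08) in WT BMDMs.

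**Figure D2:**
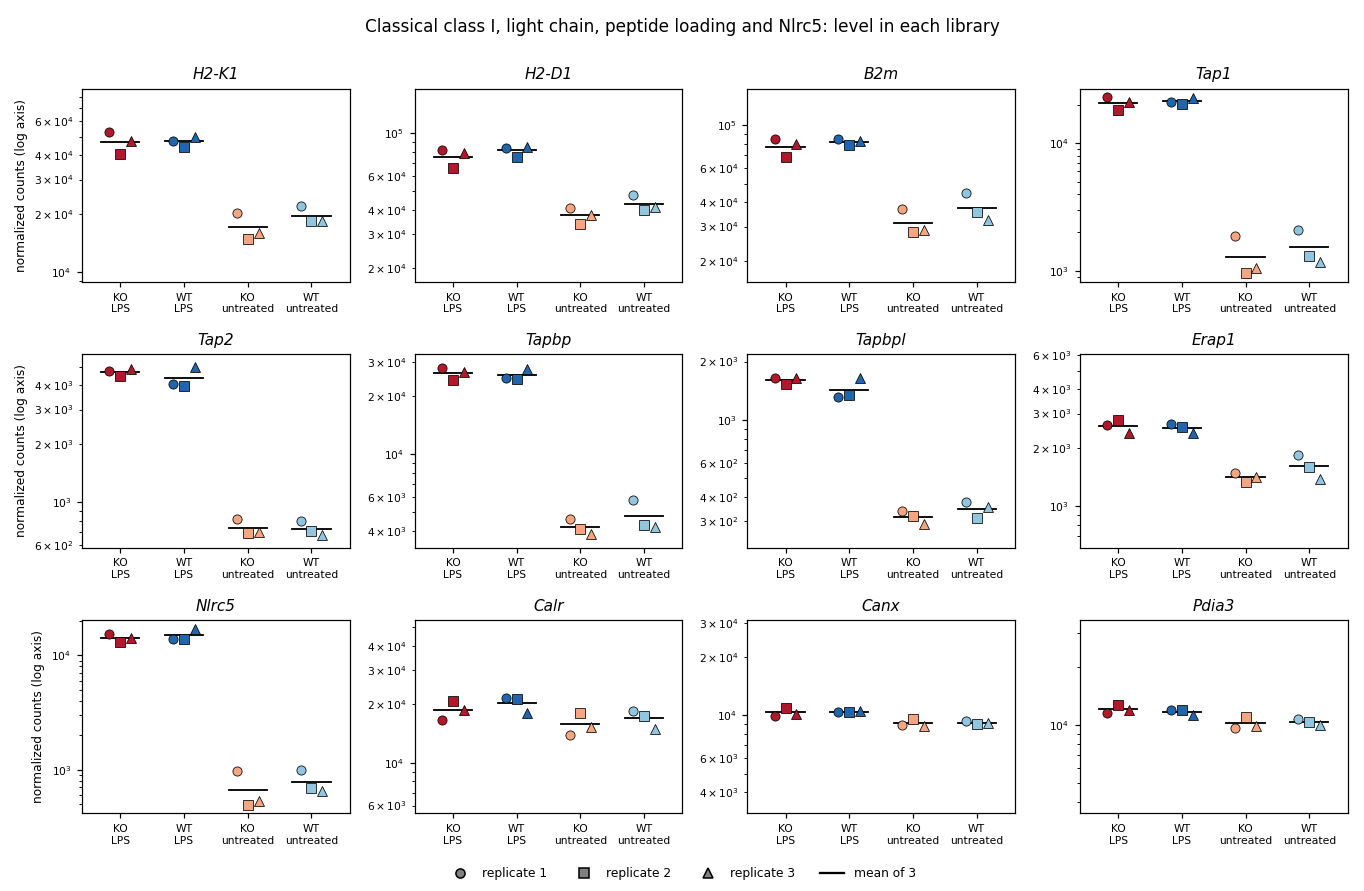
Normalized counts (y axis, log scale) of the classical heavy chain genes, *B2m*, the loading genes, *Nlrc5* and the chaperones in the 12 libraries, in LPS-treated KO, LPS-treated WT, untreated KO and untreated WT BMDMs (x axis). Symbols mark the replicate number and lines the means of 3 libraries. *Nlrc5* and *Tap1* show the widest gap between treatments, *Calr*, *Canx* and *Pdia3* the narrowest, and replicate 1 lies highest among untreated *Tap1* and *Nlrc5* values in both genotypes.

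The 10 expressed class Ib genes were called higher after LPS in both genotypes. Their log2 fold changes ran from 1.19 to 6.81 in KO and from 1.12 to 5.81 in WT BMDMs, with medians of 2.90 and 2.63. In the Q region, *H2-Q4* encodes a heavy chain also called Qb-1, and *H2-Q6* and *H2-Q7* encode Qa-2 molecules. *H2-Q4* had 4512, 3762 and 4074 normalized counts in LPS-treated KO BMDMs, against 907, 561 and 717 in untreated KO BMDMs, and 4201, 3819.6 and 4525 in LPS-treated WT BMDMs, against 1219, 935 and 878 in untreated WT BMDMs. Per kilobase it was the most abundant Q gene in every group, and its log2 fold changes were 2.52 in KO and 2.06 in WT BMDMs. Of its 150-base windows, 9.87% also occur in *Gm11131* on the opposite strand.
*H2-Q7* had 635, 456 and 469.6 normalized counts in LPS-treated KO BMDMs, against 23.3, 12.8 and 10.0 in untreated KO BMDMs. In WT BMDMs it had 942, 725 and 844 after LPS, against 58.8, 46.2 and 39.8 untreated. *H2-Q6* had 457, 348 and 359 in LPS-treated KO BMDMs, against 12.7, 25.6 and 12.9 in untreated KO BMDMs, and 757, 564 and 568 in LPS-treated WT BMDMs, against 73.3, 37.0 and 35.8 in untreated WT BMDMs. The log2 fold changes were 5.06 in KO and 4.097 in WT BMDMs for *H2-Q7*, and 4.49 in KO and 3.73 in WT BMDMs for *H2-Q6*. *H2-Q5*, annotated as a polymorphic pseudogene, had 339.9, 216 and 283 in LPS-treated KO BMDMs, against 29.6, 12.8 and 15.8 in untreated KO BMDMs, and 380.0, 308 and 337 in LPS-treated WT BMDMs, against 51.2, 42.9 and 38.2 in untreated WT BMDMs. Its log2 fold changes were 3.84 in KO and 2.93 in WT BMDMs, and none of the 3 genes had overlapping treatments.

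The 4 expressed T region genes had smaller log2 fold changes than *H2-Q5* to *H2-Q7* in each genotype. *H2-T23*, which encodes the heavy chain of Qa-1, had 15637, 10918 and 14165 normalized counts in LPS-treated KO BMDMs, against 4351, 2721 and 3134 in untreated KO BMDMs, and 14185, 13368 and 15684 in LPS-treated WT BMDMs, against 5094, 3639 and 3356 in untreated WT BMDMs. *H2-T22*, whose product is a ligand of certain gamma delta T cells, had 10333, 7856 and 8939.7 in LPS-treated KO BMDMs, against 1376, 899.6 and 1014 in untreated KO BMDMs, and 8823, 8701 and 10337 in LPS-treated WT BMDMs, against 1482, 1181 and 1221 in untreated WT BMDMs. The log2 fold changes were 2.01 in KO and 1.86 in WT BMDMs for *H2-T23* and 3.06 in KO and 2.84 in WT BMDMs for *H2-T22*. *H2-T24* had 2796, 2123 and 2303 in LPS-treated KO BMDMs, against 694, 237 and 276 in untreated KO BMDMs, and 2557, 2647 and 2651 in LPS-treated WT BMDMs, against 884, 424 and 349.7 in untreated WT BMDMs. Untreated replicate 1 of *H2-T24* stood well above replicates 2 and 3 in both genotypes, and its log2 fold changes were 2.74 in KO and 2.36 in WT BMDMs. *H2-T10*, annotated as a polymorphic pseudogene, was the least abundant of the 4 per kilobase, with 541, 386 and 467 in LPS-treated KO BMDMs, against 99.5, 86.4 and 83.8 in untreated KO BMDMs, and 547, 424 and 544 in LPS-treated WT BMDMs, against 106, 91.1 and 83.6 in untreated WT BMDMs. Its log2 fold changes were 2.35 in KO and 2.42 in WT BMDMs. *H2-T22* and *H2-T10* share 21.9% and 20.5% of their 150-base windows with *A930015D03Rik* and *BC023719*, each on the opposite strand, so part of their reads cannot be told apart from those of the partner without strand.

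*H2-M3* and *H2-M2* were the M region genes with a mean of at least 10. *H2-M3*, which presents N-formylated peptides of bacteria and mitochondria, had 1384, 1260.5 and 1298 normalized counts in LPS-treated KO BMDMs, against 659, 548 and 523 in untreated KO BMDMs, and 1298, 1126 and 1327 in LPS-treated WT BMDMs, against 643, 534 and 544 in untreated WT BMDMs. Its log2 fold changes of 1.19 in KO and 1.12 in WT BMDMs were the smallest of the called class Ib genes. *H2-M2* had 873, 1778 and 1074 in LPS-treated KO BMDMs, against 6.35, 11.1 and 12.2 in untreated KO BMDMs, and 802, 808 and 627 in LPS-treated WT BMDMs, against 8.30, 14.5 and 15.1 in untreated WT BMDMs. With log2 fold changes of 6.81 (SE 0.30, limma adjusted p = 1.34e-07) in KO and 5.81 (SE 0.22, limma adjusted p = 1.88e-08) in WT BMDMs, it was the gene of the 23 that rose most in both. Its untreated levels rest on 39 reads over 3 libraries in KO and 53 in WT BMDMs, and the 1 added before the logarithm makes these changes smaller.

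*H2-K2*, a transcribed pseudogene next to *H2-K1*, was not called for LPS. It had 738, 565 and 734 normalized counts in LPS-treated KO BMDMs, against 348, 375 and 427 in untreated KO BMDMs, with a log2 fold change of 0.82 (SE 0.12, limma adjusted p = 3.39e-04), under the fold threshold. In WT BMDMs it had 677, 670.0 and 655 after LPS, against 607, 545 and 653 untreated, with a log2 fold change of 0.15 (SE 0.08, limma adjusted p = 0.107). The treatments did not overlap in either genotype, but in WT BMDMs the nearest libraries were at 655 after LPS and 653 untreated. With equal total reads the change in WT BMDMs was -0.57. None of the 150-base windows of *H2-K2* occurs in another gene of the annotation, *H2-K1* included.

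**Figure D3:**
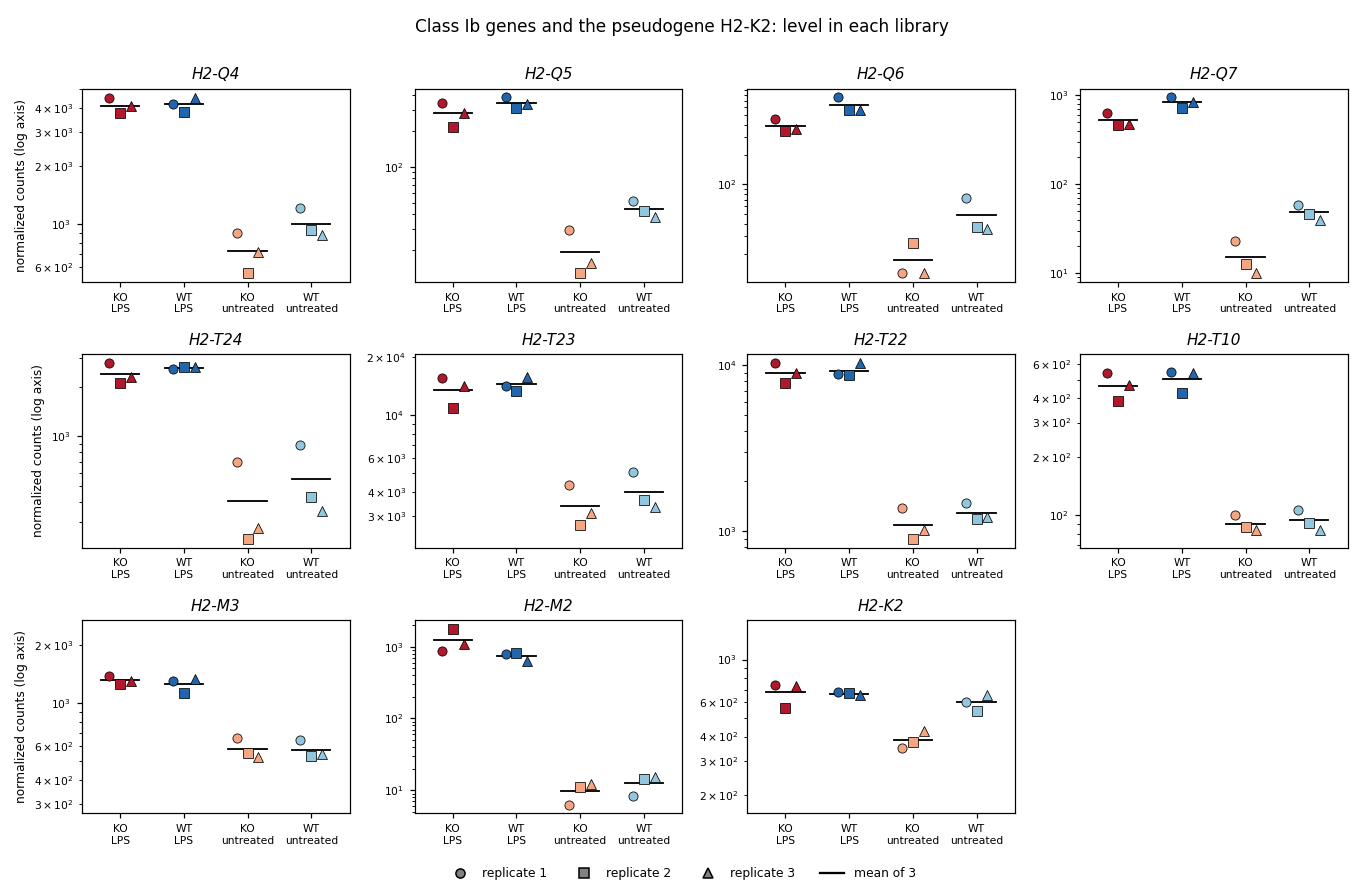
Normalized counts (y axis, log scale) of the 10 expressed class Ib genes and the pseudogene *H2-K2* in the 12 libraries, in LPS-treated KO, LPS-treated WT, untreated KO and untreated WT BMDMs (x axis), with symbols for the replicate number and lines for the means of 3 libraries. Untreated *H2-Q5*, *H2-Q6*, *H2-Q7* and *H2-K2* values of KO BMDMs lie below all WT values, and *H2-M2* lies near 10 in untreated cells.

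The second question was whether loss of RasGEF1b changed these genes. None of the 23 genes was called between KO and WT BMDMs in either treatment with limma. In untreated cells 5 of the 23 had an unadjusted p under 0.05, beside 10.8% of all genes tested. The count of calls in the 23 genes was 3 lower with DESeq2, beside 25 higher and 25 lower among all 12461 genes tested, and 0 with edgeR, beside 10 higher and 8 lower. In LPS-treated cells 3 of the 23 had an unadjusted p under 0.05, a share near the 10.6% of all genes tested, and both other tools gave 0 calls in the 23 genes, beside 26 higher and 17 lower with DESeq2 and 22 higher and 11 lower with edgeR among all genes. Of all genes tested, 0.0963% were called higher and 0.0963% lower in untreated KO BMDMs, and 0.168% higher and 0.064% lower in LPS-treated KO BMDMs.
In untreated cells the KO means of *H2-K1*, *H2-D1*, *B2m*, *Tap1* and *Nlrc5* were lower than the WT means by amounts within the spread between libraries. The log2 fold changes of KO over WT were -0.21 for *H2-K1* (95% interval -0.49 to 0.07) and -0.19 for *H2-D1* (95% interval -0.43 to 0.04). They were -0.26 for *B2m* (95% interval -0.59 to 0.06), -0.26 for *Tap1* (95% interval -0.89 to 0.37), 0.02 for *Tap2* (95% interval -0.19 to 0.23) and -0.27 for *Nlrc5* (95% interval -0.85 to 0.31). Their limma adjusted p lay between 0.562 and 0.967, and KO and WT libraries overlapped for each of the 6 genes. When 1 library was left out, these untreated values ran from -0.55 to -0.0021 for *Tap1*, -0.57 to -0.072 for *Nlrc5*, -0.39 to -0.13 for *B2m*, -0.34 to -0.12 for *H2-K1* and -0.26 to -0.12 for *H2-D1*, each lowest without untreated KO replicate 1. The value nearest 0 came without untreated WT replicate 1 for each of these genes but *H2-K1*, for which it came without untreated KO replicate 2. After LPS the same values were -0.02 for *H2-K1* (95% interval -0.25 to 0.22), -0.11 for *H2-D1* (95% interval -0.35 to 0.13) and -0.09 for *B2m* (95% interval -0.32 to 0.14). They were -0.05 for *Tap1* (95% interval -0.26 to 0.15), 0.11 for *Tap2* (95% interval -0.08 to 0.31) and -0.07 for *Nlrc5* (95% interval -0.28 to 0.15), with limma adjusted p between 0.727 and 0.973. For *H2-K1*, *Tap1* and *Nlrc5* the sign after LPS turned when single libraries were left out. Over the 23 genes, 21 of the log2 fold changes were negative in untreated cells (median -0.25, beside -0.01 over all genes tested), and 15 after LPS (median -0.04, beside -0.0015). These counts include genes whose levels follow each other, so they are not independent of one another.

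The largest differences between the genotypes were in the Q region, and *H2-Q5*, *H2-Q6*, *H2-Q7* and *H2-K2* are singled out here after their values had been seen. In untreated cells no KO library reached a WT library for any of these 4 genes, and 4 of 23 genes were lower without overlap, beside 7.98% of all genes tested. *H2-Q7* averaged 15.4 ± 6.99 normalized counts in untreated KO BMDMs and 48.3 ± 9.66 in untreated WT BMDMs (SD, n = 3 each), from 62 and 205 reads in all. Its log2 fold change was -1.65 (SE 0.31, 95% interval -2.36 to -0.94, limma adjusted p = 0.0730). *H2-Q6* averaged 17.1 ± 7.43 in untreated KO and 48.7 ± 21.3 in untreated WT BMDMs (SD, n = 3 each), from 66 and 207 reads, with a log2 fold change of -1.45 (SE 0.36, 95% interval -2.27 to -0.63, limma adjusted p = 0.150). *H2-Q5* averaged 19.4 ± 8.97 in untreated KO and 44.1 ± 6.57 in untreated WT BMDMs (SD, n = 3 each), from 79 and 187 reads, with a log2 fold change of -1.22 (SE 0.30, 95% interval -1.91 to -0.53, limma adjusted p = 0.150). These 3 genes did not pass the test reported here, whereas they were called with DESeq2 (adjusted p = 6.62e-04, 0.00876 and 0.0359 for *H2-Q7*, *H2-Q6* and *H2-Q5*) and with all 12 libraries in 1 limma fit (adjusted p = 0.00704, 0.0385 and 0.0476). Over the alternatives their adjusted p ran from 6.62e-04 to 0.259, from 0.00876 to 0.410 and from 0.0359 to 0.431, in the same order, and the direction was the same in each. The paper, which used DESeq2, lists *H2-Q7* and *H2-Q6*, but not *H2-Q5*, among its genes lower in untreated KO BMDMs. *H2-K2* averaged 384 ± 39.8 in untreated KO and 602 ± 54.5 in untreated WT BMDMs (SD, n = 3 each). Its log2 fold change of -0.65 (SE 0.10, 95% interval -0.87 to -0.43, limma adjusted p = 0.0381) passed the adjusted p but not the fold threshold, and the adjusted p was between 0.0567 and 0.129 when any 1 library was left out and ran from 4.30e-06 to 0.149 over all alternatives.

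After LPS, *H2-Q7* averaged 520.3 ± 99.6 normalized counts in KO BMDMs and 837 ± 109 in WT BMDMs (SD, n = 3 each), with a log2 fold change of -0.69 (SE 0.14, 95% interval -0.996 to -0.39, limma adjusted p = 0.0526). *H2-Q6* averaged 388 ± 60.1 in LPS-treated KO and 629 ± 111 in LPS-treated WT BMDMs (SD, n = 3 each), also with -0.69 (SE 0.14, 95% interval -1.003 to -0.38, limma adjusted p = 0.0557). Both genes were lower in every KO library than in any WT library. They were the 2 of the 23 genes lower without overlap, a share near the 7.73% of all genes tested. Over the alternatives (limma, edgeR and DESeq2) the adjusted p ran from 2.73e-04 to 0.278 for *H2-Q7* and from 6.25e-04 to 0.329 for *H2-Q6*. Their log2 fold changes ran from -0.84 to -0.60 and from -0.82 to -0.55, always under a 2-fold change. *H2-Q5* overlapped between the genotypes after LPS, with a log2 fold change of -0.31 (95% interval -0.66 to 0.04), as did *H2-Q4* with -0.02 (95% interval -0.21 to 0.17) and *H2-K2* with 0.01 (95% interval -0.22 to 0.25). *H2-Q4*, the neighbour of these genes, had -0.48 in untreated cells (95% interval -0.89 to -0.08, limma adjusted p = 0.360), with overlap.
*H2-Q6* and *H2-Q7* are close copies, and 5.99% of the 150-base windows of *H2-Q6* transcripts also occur in *H2-Q7*. How reads that fit both were counted is not given in the sources used here, so the split between the 2 genes is uncertain. Their sum, which does not depend on that split, was 1092, 804 and 829 normalized counts in LPS-treated KO BMDMs and 1699, 1288 and 1412 in LPS-treated WT BMDMs. In untreated cells the sum was 36.0, 38.5 and 22.9 in KO and 132, 83.2 and 75.7 in WT BMDMs, again with each KO library below each WT library. Set against *H2-D1* of the same library, *H2-Q7* stood at 5.91 to 7.75 per 1000 in LPS-treated KO and 9.57 to 11.3 in LPS-treated WT libraries, and at 0.264 to 0.564 in untreated KO and 0.957 to 1.23 in untreated WT libraries. The genotypes did not overlap on this measure, which does not depend on the size factors. The sum and this ratio reuse the values for which the genes were singled out, so they are not separate observations. The summed level of the 7 macrophage markers was 250707 to 314017 normalized counts in LPS-treated KO against 314337 to 363940 in LPS-treated WT libraries, without overlap, and 210285 to 262668 in untreated KO against 256386 to 317241 in untreated WT libraries, with overlap. *Lyz2* held the largest part of the sum, with 128987 to 177890.5 normalized counts in LPS-treated KO and 183946 to 214038.5 in LPS-treated WT libraries. After LPS *Mertk* was also lower in KO BMDMs without overlap. *Itgam* went the other way, with 5146.5 to 5674 in KO and 4499 to 4739 in WT libraries. *Adgre1*, *Csf1r*, *Cd68* and *Fcgr1* overlapped. The part of these markers in the differences between the genotypes was not tested.

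*H2-M2*, also singled out after its values had been seen, went the other way in LPS-treated cells. It averaged 1242 ± 475 normalized counts in LPS-treated KO and 746 ± 103 in LPS-treated WT BMDMs (SD, n = 3 each), with every KO library above every WT library. This was so for 1 of the 23 genes, beside 8.35% of all genes tested. The log2 fold change was 0.68 (SE 0.21, 95% interval 0.20 to 1.15, limma adjusted p = 0.258). LPS-treated KO replicate 2, with 1778 normalized counts, held the highest value, and the smallest change when 1 library was left out was 0.39. With 1 library left out the limma adjusted p ran from 0.0412 to 0.444. In untreated cells the genotypes overlapped near 10 normalized counts, with a log2 fold change of -0.33 (95% interval -1.15 to 0.49).

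**Figure D4:**
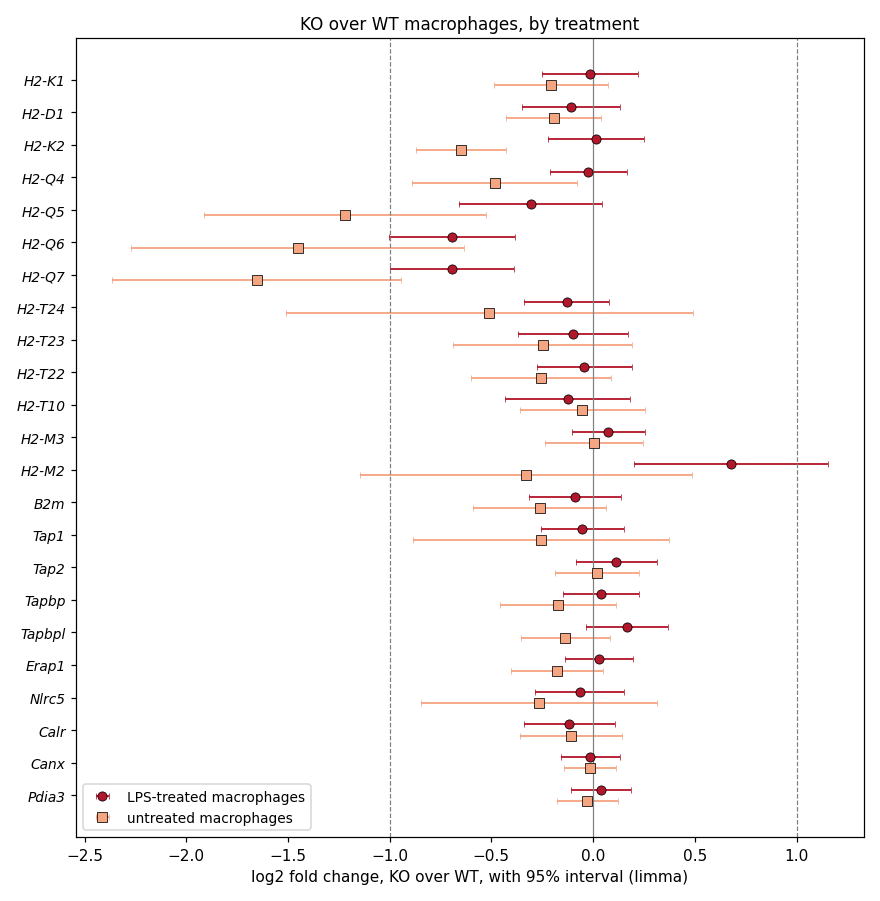
Log2 fold change of KO over WT BMDMs (x axis, limma on log2 of the normalized count plus 1, bars are 95% intervals) for the 23 expressed genes (y axis), in LPS-treated (circles) and untreated (squares) cells, with 3 libraries per group. Dashed lines mark log2 fold changes of -1 and 1. Untreated *H2-Q5*, *H2-Q6* and *H2-Q7* lie beyond -1, at -1.22, -1.45 and -1.65, with intervals that reach to -0.53, -0.63 and -0.94.

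Whether the response to LPS differed between the genotypes was tested over all 12 libraries as an interaction. None of the 23 genes passed an adjusted p under 0.05 with limma or with edgeR, 5 had an unadjusted p under 0.05, beside 4.22% of all genes tested, and 1 gene, *H2-K2*, passed with DESeq2, beside 18 with a stronger and 6 with a weaker response in KO BMDMs among all genes. Of all genes tested, 0.00787% passed with a stronger and 0% with a weaker response in KO BMDMs. The difference in log2 fold change was 0.66 for *H2-K2* (SE 0.15, 95% interval 0.33 to 0.996, limma adjusted p = 0.491; DESeq2 adjusted p = 0.0359). It was 0.96 for *H2-Q7* (95% interval 0.20 to 1.73), 0.91 for *H2-Q5* (95% interval 0.13 to 1.70), 0.76 for *H2-Q6* (95% interval -0.13 to 1.65) and 1.01 for *H2-M2* (95% interval 0.12 to 1.90), each with a limma adjusted p of 0.999. For the genes that were lower in untreated KO BMDMs, these values follow from the same untreated libraries and are not a separate observation. The classical heavy chains, *B2m*, *Tap1*, *Tap2* and *Nlrc5* had differences between 0.08 and 0.20, with intervals that included 0.

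The untreated libraries did not vary evenly. Replicate 1 held the highest of the 3 values for 17 of the 23 genes in untreated KO and for 21 of the 23 in untreated WT BMDMs, while this was so for 39.6% and 33.5% of all genes with a mean of at least 10. *H2-T24* had an untreated mean of 402 ± 254 in KO and 553 ± 289 in WT BMDMs (SD, n = 3 each). In LPS-treated KO BMDMs replicate 1 was the highest for 17 of the 23 genes, beside 38.9% of all genes. Replicate 2 was the lowest there for 18, beside 39.2%. In LPS-treated WT BMDMs replicate 3 was the highest for 13, beside 42.8%, and replicate 2 the lowest for 15, beside 32.8%. Without untreated replicate 1 of both genotypes, an alternative added after the values had been seen, none of the 23 genes was called, and the log2 fold change of KO over WT was -1.83 for *H2-Q7* (limma adjusted p = 0.0559), -0.96 for *H2-Q6* (limma adjusted p = 0.410), -1.45 for *H2-Q5* (limma adjusted p = 0.0862) and -0.57 for *H2-K2* (limma adjusted p = 0.0973).

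Genes of the steps around class I loading were taken from lists chosen with earlier results of these data known. Of 11 genes of the immunoproteasome, the proteasome activator and other peptidases, 7 rose after LPS in each genotype and none fell, with medians of 1.67 in KO and 1.56 in WT BMDMs, beside the 17.3% and 17.1% of all genes tested that rose in KO and WT BMDMs. With equal total reads 5 rose and 1 fell in each genotype. *Psmb9*, a catalytic subunit of the immunoproteasome encoded beside *Tap1*, averaged 3860.0 normalized counts in LPS-treated KO BMDMs, against 575 in untreated KO BMDMs, and 3828 in LPS-treated WT BMDMs, against 656 in untreated WT BMDMs. *Psme2*, a subunit of the proteasome activator, averaged 10775 in LPS-treated KO BMDMs, against 1706 in untreated KO BMDMs, and 10512 in LPS-treated WT BMDMs, against 1931 in untreated WT BMDMs. Of 15 transcription factors that act at class I promoters, 7 rose in each genotype, and 1 fell in KO and none in WT BMDMs, with medians of 0.98 and 0.96. With equal total reads 6 rose and 4 fell in each genotype, and 1 fell in WT BMDMs with edgeR or without LPS-treated WT replicate 3. The gene that fell was *Rfxank*, a subunit of the RFX complex that binds the X box, with a log2 fold change of -1.05 in KO BMDMs, named here after its value had been seen, and the call was lost with a pseudocount of 5, with upper quartile scaling or without LPS-treated KO replicate 1. *Irf1*, which binds interferon-stimulated response elements, averaged 24927 normalized counts in LPS-treated KO BMDMs, against 787 in untreated KO BMDMs, and 24555 in LPS-treated WT BMDMs, against 1002 in untreated WT BMDMs. *Nfkb1*, a subunit of NF-kB, averaged 15144 in LPS-treated KO BMDMs, against 1818.5 in untreated KO BMDMs, and 13751 in LPS-treated WT BMDMs, against 1669.7 in untreated WT BMDMs. Of 10 other chaperones of the endoplasmic reticulum, 1 rose in each genotype, *Hspa5*, which encodes BiP, with log2 fold changes of 1.31 in KO and 1.25 in WT BMDMs, and with equal total reads none rose and 1 of the 10 fell in each genotype. The 1 of 10 that rose is a smaller share than that of all genes tested. Between KO and WT BMDMs none of the genes of these lists was called in either treatment, and the list medians lay between -0.12 and 0.02.

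The other 17 genes of the 40 were at or near 0. *H2-Q10*, which is known for expression in liver, had 11 to 18 reads in a group of 3 libraries, and *H2-Q1* had 5 to 8. *H2-M6-ps*, *H2-T3*, *H2-Q2*, *H2-M10.2* and *H2-M5* had 1 to 4 reads over all 12 libraries. No read was counted for *H2-Q3*, *H2-M1*, *H2-M9*, *H2-M11* and the 6 other genes of the *H2-M10* group. A count of 0 in a library allows up to 3 reads, so low expression of these genes was not detectable at this depth. *H2-Q10* shares 3.12% of its 150-base windows with *H2-Q7*, which was expressed.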

How the data were processed

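Poly(A) RNA of 12 BMDM libraries was sequenced as paired reads of 150 bases. Per the submitters' processing notes the authors used bcl2fastq (2.17), Trimmomatic (0.39), STAR (2.7.4a), featureCounts of Subread (2.0.1), DESeq2 (1.32.0) and R (4.1.2) on GRCm38. The authors deposited signal values in the form of normalized counts: reads per gene over 1 DESeq2 size factor for each library. When each library was divided by its lowest nonzero value, 100% of the values came out as whole reads (largest deviation 1.22e-09, tolerance 1e-06), and these recovered reads served for depths and for the alternative count tests. Multi-mapping and strand settings are not given in the sources used here.

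Groups were taken from the sample titles. For each comparison limma (3.58.1) in R (4.3.3) with a trended variance was fitted to log2 of the normalized count plus 1 in the libraries of the groups compared, for genes with a mean of at least 10, and p was adjusted by Benjamini-Hochberg across these genes. Genes were called at an adjusted p under 0.05 with at least a 2-fold change either way. The difference of the LPS responses was fitted to all 12 libraries, with a call at an adjusted p under 0.05. Fold changes on this scale understate the change of genes with few reads, and p-values measure the spread between these libraries. The scripts were tested on simulated data.

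Genes with a mean of at least 10 over the 12 libraries were described by name. Full statistics were given for those called between the genotypes or for LPS in 1 genotype only, for those past the interaction threshold, and for *B2m*, *Tap1*, *Tap2*, *Nlrc5*, *H2-K1* and *H2-D1*, and of each list up to 2 called genes were to be named. Outside this rule, statistics of *Erap1*, *H2-M2*, *H2-K2*, *H2-Q5*, *H2-Q6* and *H2-Q7* were added and *Rfxank* was named after their values had been seen. The genes and lists were chosen with earlier results of these data known. Positions, gene types and windows came from a GENCODE annotation of GRCm38. The alternatives were pseudocounts (0.5, 5), filters (none, mean of at least 50), scalings (upper quartile, equal total reads), all 12 libraries in 1 fit, a variance without a trend, edgeR (4.0.16), DESeq2 (1.42.0), the replicate number as a block, no fold threshold, and leaving out each library. The titles give replicate numbers without saying what they pair. Within a genotype, after subtraction of group means, LPS-treated and untreated libraries with the same number correlated weakly over all genes tested. The values were r = 0.288, 0.276 and 0.171 in KO and 0.334, 0.190 and 0.227 in WT BMDMs, each more than with the other numbers. Over the 23 genes they were 0.68, 0.482 and 0.195 in KO and -0.009, 0.406 and -0.155 in WT BMDMs. There only 1 number in each genotype was best with itself.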

Additional observations from a re-analysis of the deposited data

How the results depend on the processing

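No call between the genotypes was made among the 23 genes in the fits reported, and the count in untreated cells moved with the method. It was 3 lower with DESeq2 and with all 12 libraries in 1 fit, 1 with no filter and 1 with no fold threshold, and 0 to 2 when 1 library was left out (2 without untreated KO replicate 1, *H2-Q5* and *H2-Q7*). After LPS it was 0 in each setting, and *H2-Q6*, *H2-Q7* and *H2-M2* stayed under a 2-fold change also where their adjusted p was under 0.05. The replicate number as a block gave 1 lower gene in untreated cells (*H2-Q7*, adjusted p = 0.0147), and changed no other call of these genes. Between the genotypes, the same numbers correlated over all genes tested with r = -0.074, -0.043 and 0.253 in untreated cells, with 1 of 3 best with itself. In LPS-treated cells r was -0.211, -0.057 and 0.077, with 0 of 3. Over the 23 genes r was 0.632, 0.18 and 0.805 in untreated cells, with 2 of 3 numbers best with themselves. It was 0.098, 0.711 and 0.488 in LPS-treated cells, again with 2 of 3. The titles give no link between the genotypes beyond the number. With DESeq2, 1 gene passed the interaction, *H2-K2*. Leaving out 1 library kept 17 to 18 genes called for LPS in KO and 17 in WT BMDMs.

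With equal total reads the LPS changes in KO and WT BMDMs turned to -0.44 and -0.55 for *Pdia3*, -0.44 and -0.47 for *Calr*, and -0.50 and -0.54 for *Canx*, and in WT to -0.062 for *Erap1* and -0.57 for *H2-K2*. KO over WT after LPS turned to 0.014 for *H2-K1* and 0.0057 for *H2-Q4* with equal total reads and to -0.0010 for *H2-K2* with upper quartile scaling. With single libraries left out, KO over WT ran from -0.058 to 0.093 for untreated *Tap2* and, after LPS, from -0.052 to 0.14 for *H2-K2*, -0.11 to 0.085 for *H2-K1*, -0.13 to 0.034 for *Tap1*, -0.092 to 0.039 for *H2-Q4* and -0.13 to 0.034 for *Nlrc5*. The interaction ran from -0.051 to 0.50 for *Tap1* and -0.020 to 0.86 for *H2-T24*. Of the 10 other genes 5 changed sign somewhere in untreated cells, 6 after LPS and 5 in the interaction, none with a value above 0.15. Untreated *H2-Q5* to *H2-Q7* rest on 62 to 207 reads per group.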

Other observations

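Class I-like molecules encoded outside the H2 complex responded unevenly to LPS. Of 10 such genes tested, 3 rose and 1 fell in KO BMDMs, and 4 rose and 1 fell in WT BMDMs, with median log2 fold changes of 0.72 and 0.65. The balance depends on the scaling: with equal total reads 1 rose and 3 fell in KO and 1 rose and 2 fell in WT BMDMs, and with upper quartile scaling 5 rose and none fell in KO and 4 rose and 1 fell in WT BMDMs. *Procr*, which encodes the endothelial protein C receptor, averaged 1388 normalized counts in LPS-treated KO BMDMs, against 246 in untreated KO BMDMs, and 1577 in LPS-treated WT BMDMs, against 170.0 in untreated WT BMDMs. *Mr1*, which presents microbial vitamin B metabolites to MAIT cells, fell to 203 in LPS-treated KO BMDMs, against 409 in untreated KO BMDMs, and to 199 in LPS-treated WT BMDMs, against 483 in untreated WT BMDMs, with log2 fold changes of -1.01 (standard error 0.09, limma adjusted p = 1.05e-05) and -1.28 (standard error 0.10, limma adjusted p = 2.73e-06). The call of *Mr1* in KO BMDMs was lost with a pseudocount of 5, with upper quartile scaling and without LPS-treated replicate 1, untreated replicate 1 or untreated replicate 3. None of these genes was called between KO and WT BMDMs.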
